A study of Mus musculus with 10 samples.

Results

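Apelin and adrenomedullin are secreted peptides that act on blood vessels, and 7 genes of their signalling were followed here by name among the 24538 genes counted: Apln and Adm for the peptides, Aplnr and Calcrl for the receptors, and Ramp1, Ramp2 and Ramp3 for the receptor activity-modifying proteins. All 7 genes were found in the count files, and 5 of them passed the filter on low counts and were tested. The cells were sorted by flow cytometry as positive for CD31, an endothelial adhesion molecule, and negative for CD45, a leukocyte protein. They came from lung metastases in 5 libraries and from normal lung in 5 libraries, all of wild-type C57BL6/J mice with a stated age of 8 to 10 weeks. The metastases grew from the mouse mammary tumour line E0771-LG, injected into the tail vein of females aged 6 to 8 weeks. They were dissected while under 1 mm in diameter and pooled from 2 to 4 mice. The tissue of both groups was digested for 30 min with alpha-amanitin and actinomycin D, which inhibit transcription, in the buffer. The labels do not say whether the libraries of a group came from separate mice, so p-values measure the spread between these libraries, part of which may be technical.

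Apelin, the product of Apln, binds the receptor encoded by Aplnr, which signals through inhibitory G proteins and beta-arrestin. In vessels apelin is a marker of sprouting tip cells, and in the lung it marks aerocytes, capillary cells specialised for gas exchange, while Aplnr marks general capillary cells. Adrenomedullin, the product of Adm, needs a receptor of 2 parts: the calcitonin receptor-like receptor (Calcrl) and a RAMP. With RAMP2 or RAMP3 that receptor binds adrenomedullin, and with RAMP1 it binds calcitonin gene-related peptide. It signals through the stimulatory G protein and cyclic AMP and tightens the endothelial barrier. Adm is also a known target of the hypoxia-inducible factors.

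Adm was higher in metastases while Apln and Calcrl were lower, so the start regions of these 3 genes are shown first. Each is 300 bases from RefSeq (GRCm38.p6), 250 before and 50 after the annotated start, 5′ to 3′ on the strand of the gene. Capitals mark the core ACGTG or GCGTG, which hypoxia-inducible factors bind, and the core AGGAAG or CGGAAG, which ETS factors of endothelium bind, on either strand.
Adm, chr7:110627407-110627706, plus strand: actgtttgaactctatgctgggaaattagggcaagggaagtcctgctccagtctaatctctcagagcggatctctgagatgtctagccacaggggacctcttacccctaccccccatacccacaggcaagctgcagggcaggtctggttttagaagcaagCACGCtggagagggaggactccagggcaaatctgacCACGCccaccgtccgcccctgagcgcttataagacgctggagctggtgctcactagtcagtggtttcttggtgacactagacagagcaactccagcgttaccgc
Apln, chrX:48034804-48035103, minus strand: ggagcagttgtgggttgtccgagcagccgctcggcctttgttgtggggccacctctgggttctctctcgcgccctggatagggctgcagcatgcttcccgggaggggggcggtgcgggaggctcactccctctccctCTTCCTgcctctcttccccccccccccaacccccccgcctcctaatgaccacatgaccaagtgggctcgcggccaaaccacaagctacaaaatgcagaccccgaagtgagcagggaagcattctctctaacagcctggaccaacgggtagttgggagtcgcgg
Calcrl, chr2:84425217-84425516, minus strand: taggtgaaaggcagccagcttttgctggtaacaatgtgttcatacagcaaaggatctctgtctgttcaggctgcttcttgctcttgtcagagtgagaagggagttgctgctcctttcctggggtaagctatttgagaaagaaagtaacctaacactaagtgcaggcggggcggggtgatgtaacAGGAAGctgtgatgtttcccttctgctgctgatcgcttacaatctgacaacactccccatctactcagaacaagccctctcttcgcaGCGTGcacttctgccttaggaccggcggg
The Adm window holds 2 matches to the hypoxia core, both GCGTG on the opposite strand, at -90 and -54 from the start, and none to the ETS core. The Apln window holds 1 ETS match and no hypoxia match, and the Calcrl window holds 1 of each. Among 32851 mouse start regions of this length, 43.8% hold at least 1 hypoxia core and 20.6% hold 2 or more, and 46.5% hold an ETS core. The cores do not overlap each other. Among the other members, Ramp3 has 2 matches of each kind and Ramp1 has none. Entries were found for 5 of the 7 genes, all but Aplnr and Ramp2. A match describes the letters only.

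Gene counts per library summed to between 21677429 and 54266459 in metastases and between 41004704 and 79710581 in normal lung. Pecam1, the gene of CD31, averaged 644 ± 508 CPM (counts scaled to effective library size) in metastases and 2415 ± 864 CPM in normal lung, and Ptprc, the gene of CD45, averaged 121 ± 25.6 and 17.8 ± 7.31 CPM (SD, n = 5 each). Of 17 genes typical of all endothelial cells, Pecam1 among them and no member, 16 fell, and relative to the normal lung mean their median level was 26.9, 22.2, 22.01, 8.20 and 7.37% in the 5 metastasis replicates. In bulk samples, fewer endothelial cells and less RNA per cell cannot be told apart. The summed level of 7 fibroblast markers was 324 to 906 CPM in metastases and 6.08 to 59.1 CPM in normal lung. For 8 macrophage markers it was 316 to 1410.5 and 41.9 to 208 CPM, for 6 neutrophil markers 40.6 to 79.2 and 0.367 to 2.45 CPM, and for 4 platelet markers 670 to 12105 and 182 to 875 CPM, in metastases and normal lung. Over all tested genes 12.0% rose and 8.22% fell. Of the tested markers in these 4 lists, 5 of 5, 3 of 6, 3 of 3 and 2 of 4 rose and none fell. No listed marker was at 0 in all 10 libraries. The part of these cells in the results that follow was not tested.

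Among the 5 tested genes 3 fell and 1 rose in metastases. Apln, Aplnr and Calcrl were lower, Adm was higher, and Ramp2 did not pass the test. Over all 11823 tested genes 8.22% fell, 12.0% rose and 20.2% did either (adjusted p under 0.05, edgeR). In 3 of the 5 genes, Apln, Aplnr and Calcrl, every metastasis library lay below every normal lung library, which held for 6.17% of all tested genes. No tested member lay above normal lung in every library, as 8.50% of tested genes did. The members were chosen with earlier results known, so these counts are descriptive. All changes are relative to the bulk of genes, whose median log2 fold change was 0.06.

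**Figure D1:**
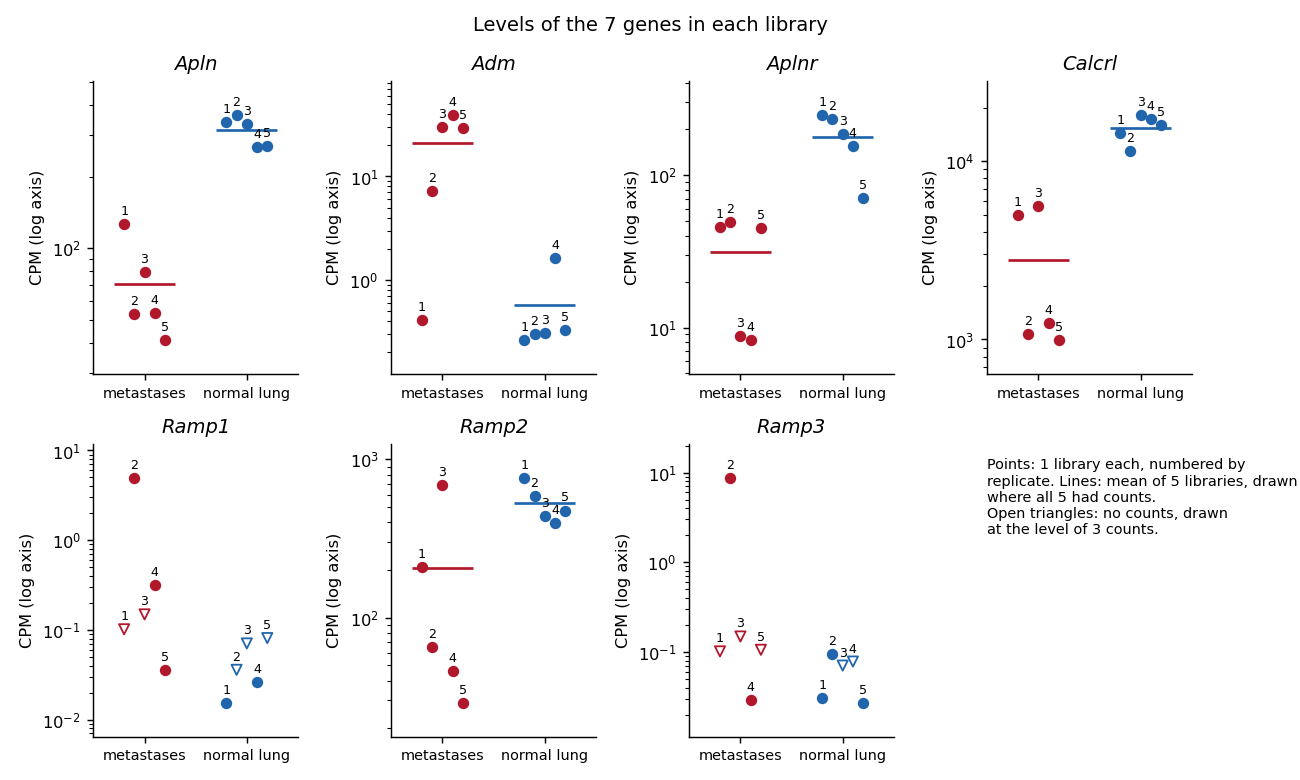
CPM of the 7 genes on a log axis in 5 metastasis libraries (left, red) and 5 normal lung libraries (right, blue), 1 point per library numbered by replicate, with the mean as a line where all 5 libraries had counts and open triangles at the level of 3 counts where a library had none. Apln, Aplnr and Calcrl do not overlap between groups, Adm is high in metastasis replicates 2 to 5 at 7.25 CPM or more, and Ramp1 and Ramp3 reach 1 CPM in metastasis replicate 2 alone.

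Apln (chromosome X, 48025146 to 48034853, minus strand, GRCm38) is the gene of the apelin precursor. It had 126, 52.8, 79.5, 53.6 and 41.1 CPM in metastasis replicates 1 to 5, against 338, 363, 333, 267 and 268 CPM in normal lung replicates 1 to 5. The highest metastasis library was below the lowest normal one. The means were 70.6 ± 33.9 CPM in metastases and 314 ± 43.8 CPM in normal lung (SD, n = 5 each). This was a 4.45-fold fall (log2 fold change -2.15 ± 0.42 SE, adjusted p = 0.000777). Among the fallen members Apln had the smallest change, and relative to its normal lung mean it stood at 40.1, 16.8, 25.3, 17.1 and 13.1% in the 5 metastasis libraries. The pan-endothelial level in the same libraries was lower in 4 of them and, at 22.2%, higher in replicate 2.

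Adm (chromosome 7, 110627661 to 110629820, plus strand) encodes the precursor of adrenomedullin. It had 0.406, 7.25, 30.0, 39.4 and 29.4 CPM in metastasis replicates 1 to 5, against 0.260, 0.299, 0.306, 1.64 and 0.324 CPM in normal lung replicates 1 to 5. Metastasis replicate 1 lay within the normal lung range and the other 4 lay above it, so the groups overlapped. In raw counts the metastasis libraries held 12, 474, 604, 1358 and 834, and the normal lung libraries 17, 25, 13, 63 and 12. The means were 21.3 ± 16.6 CPM in metastases and 0.566 ± 0.602 CPM in normal lung (SD, n = 5 each), a 37.5-fold rise (5.23 ± 1.30, adjusted p = 0.00551). On the length-scaled FPKM of the authors' table, Adm reached 48.4, 51.1 and 35.1 FPKM in metastasis replicates 3 to 5, above the 42.1, 21.0 and 16.1 FPKM of Apln there. In the other 7 libraries Apln was above Adm. A predicted antisense gene, Gm28863, overlaps Adm in the GENCODE M21 annotation but shares no exon bases with it.

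The balance of the 2 peptide genes was compared within libraries. The log2 ratio of Adm to Apln, from FPKM + 0.1, was -6.52, -1.23, 0.20, 1.28 and 1.12 in metastasis replicates 1 to 5, and -8.09, -8.17, -7.96, -5.53 and -8.05 in normal lung replicates 1 to 5. The mean was -1.03 ± 3.23 in metastases and -7.56 ± 1.14 in normal lung (SD, n = 5 each). The difference of 6.53 had a two-sided exact permutation p of 0.0159, and 0.0952 after Benjamini-Hochberg adjustment over the 6 ratios and shares tested. It was higher than in every normal lung library in 4 of 5 metastasis libraries, and it did not pass after adjustment. Without metastasis replicate 1, the library with the least Adm of its group, the difference was 7.90 and the adjusted p 0.0476, the only one of 10 such omissions that passed. In the other 9 the adjusted p was 0.0857 to 0.143.

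Aplnr (chromosome 2, 85136225 to 85139923, plus strand) encodes the apelin receptor. It had 45.7, 49.4, 8.78, 8.24 and 45.1 CPM in metastasis replicates 1 to 5, against 248, 233, 186, 156 and 70.5 CPM in normal lung replicates 1 to 5. Replicates 3 and 4 were the low metastasis libraries and replicate 5 the low normal one, without overlap between the groups. The means were 31.4 ± 21.0 CPM in metastases and 179 ± 70.9 CPM in normal lung (SD, n = 5 each), a 5.68-fold fall (-2.51 ± 0.59, adjusted p = 0.0038). Its order across metastasis libraries differed from that of its ligand: in replicate 5 Aplnr was at 25.2% and Apln at 13.1% of the normal lung mean, and in replicate 3 Aplnr was at 4.91% and Apln at 25.3%.

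Calcrl (chromosome 2, 84330626 to 84425411, minus strand), the shared receptor of adrenomedullin and calcitonin gene-related peptide, was among the most abundant transcripts of the sort. It took 1.19 to 1.61% of all gene counts in normal lung and ranked 3rd or 4th by CPM in each of those libraries. Its share was 0.129 to 0.457% in metastases, where it ranked 7th to 49th. It had 5000.3, 1077, 5609.5, 1232 and 989.6 CPM in metastasis replicates 1 to 5, against 14412, 11342, 18200.2, 17187 and 15886 CPM in normal lung replicates 1 to 5. Metastasis replicates 1 and 3 were above the other 3, and all 5 were below normal lung. The means were 2782 ± 2315 CPM in metastases and 15405 ± 2679 CPM in normal lung (SD, n = 5 each), a 5.54-fold fall (-2.47 ± 0.47, adjusted p = 0.000572).

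The 3 RAMP genes differed widely in level. Ramp2 (chromosome 11, 101246028 to 101259546, plus strand) had 209, 65.4, 685, 46.2 and 28.8 CPM in metastasis replicates 1 to 5, against 768, 589, 439, 395 and 475 CPM in normal lung replicates 1 to 5. In 4 metastasis libraries it was below all normal lung libraries, and in replicate 3 it was above all but 1 of them. The means were 207 ± 276 CPM in metastases and 533 ± 150 CPM in normal lung (SD, n = 5 each; -1.37 ± 0.63, adjusted p = 0.138). Without metastasis replicate 3 the log2 fold change was -2.62 and the adjusted p 0.000785. In GENCODE M21 Ramp2 shares 1103 exon bases with Vps25, an endosomal sorting gene on the same strand, so its counts and FPKM are uncertain. Vps25 itself averaged 9.09 ± 4.55 CPM in metastases and 47.7 ± 20.03 CPM in normal lung (SD, n = 5 each), and was at 11.7 CPM in metastasis replicate 3.

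Ramp1 (chromosome 1, 91179822 to 91225196) and Ramp3 (chromosome 11, 6658521 to 6677475) were nearly absent from the counts and were not tested. Ramp1 had 0, 326, 0, 11 and 1 counts in metastasis replicates 1 to 5 and 1, 0, 0, 1 and 0 counts in normal lung replicates 1 to 5. Ramp3 had 0, 575, 0, 1 and 0 counts in metastases and 2, 8, 0, 0 and 1 counts in normal lung, in the same order. Nearly all counts of both genes came from metastasis replicate 2, at 4.99 CPM for Ramp1 and 8.80 CPM for Ramp3. A count of 0 allows up to 3 counts, which is 0.0359 to 0.149 CPM across the 10 libraries and covers counting error only. With no filter on low counts the adjusted p was 0.0633 for Ramp1 and 0.0816 for Ramp3. Ramp3 shares 101 exon bases with the pseudogene Gm11978 on the opposite strand.

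Per length, Ramp2 made up almost all RAMP transcript in both groups. Its share of the summed FPKM of Ramp1, Ramp2 and Ramp3 was 100, 89.1, 100, 99.8 and 99.95% in metastasis replicates 1 to 5 and at least 99.99% in every normal lung library. In metastasis replicate 2 Ramp3 took 8.94% and Ramp1 1.92%. The mean Ramp2 share was 97.8 ± 4.83% in metastases and 99.996 ± 0.00251% in normal lung (SD, n = 5 each; exact permutation p = 0.167, adjusted 0.25), and no RAMP share differed beyond the spread between libraries.

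Set side by side per length, Calcrl and Ramp2 had the highest levels of the 7 genes in normal lung. In normal lung Calcrl lay at 1807 to 2101 FPKM in 4 libraries and Ramp2 at 1017 to 1346 FPKM, so these neighbours in the order did not overlap. Apln followed at 119 to 147 FPKM, Aplnr at 26.1 to 68.9 FPKM and Adm at 0.339 to 2.69 FPKM, again without overlap. Ramp3 at 0 to 0.0767 FPKM and Ramp1 at 0 to 0.0276 FPKM were the lowest and overlapped. In normal lung replicate 3 the authors' table lists Calcrl at 0 FPKM although its count file holds 773509 counts of the gene. This was 1 of 34 genes listed at 0 there among 9136 with at least 100 counts, and the value was read as a failed estimate. In metastases the order was less distinct: Calcrl at 105 to 830 FPKM overlapped Ramp2 at 60.7 to 1723 FPKM, and Apln at 16.1 to 55.0 FPKM, Adm at 0.499 to 51.1 FPKM and Aplnr at 2.68 to 17.1 FPKM overlapped each other.

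**Figure D2:**
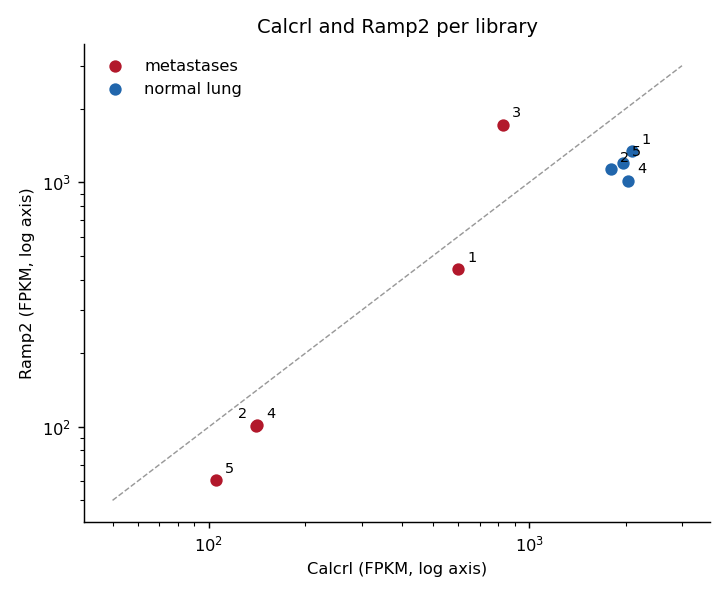
Ramp2 against Calcrl in FPKM, both on log axes, 1 point per library numbered by replicate, metastases in red and normal lung in blue, with the line of equal level dashed; normal lung replicate 3 is left out because Calcrl is listed at 0 there. Metastasis replicate 3 is the only library drawn above the line, which applies to FPKM and not to CPM.

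The ratio of Ramp2 to Calcrl, the 2 parts of the adrenomedullin receptor, had a log2 value of -0.44, -0.47, 1.05, -0.48 and -0.80 in metastasis replicates 1 to 5, and -0.64, -0.67, -1.005 and -0.72 in normal lung replicates 1, 2, 4 and 5. Normal lung replicate 3 was dropped. These values near 0 hold for FPKM only. In CPM the normal lung means were 15405 for Calcrl and 533 for Ramp2, with 4882 and 3301 exon bases in GENCODE M21. For the FPKM ratio the difference of means was 0.53 (exact permutation p = 0.127, adjusted 0.25), and 0.21 without metastasis replicate 3. The log2 ratio of Calcrl to Aplnr averaged 4.99 ± 1.94 in 5 metastasis libraries and 5.23 ± 0.68 in 4 normal lung libraries (SD; exact permutation p = 0.865, adjusted 0.865). The ranges were 2.96 to 7.81 in metastases and 4.71 to 6.23 in normal lung. The smallest p that these tests allow is 0.00794, for 5 against 4 libraries as for 5 against 5.

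Apln, Aplnr and Calcrl stayed lower with RLE factors (-2.05, -2.46 and -2.32) and with library totals (-1.998, -2.23 and -2.41), all past the threshold. A scaling to endothelial genes moves every gene by about the same amount, so it gives the members relative to those genes. Scaled to the 17 pan-endothelial genes, which raised the median of all tested genes to 2.90, the log2 fold changes were 0.50 ± 0.56 for Apln, 0.32 ± 0.74 for Aplnr, -0.04 ± 0.47 for Calcrl and 1.09 ± 0.61 for Ramp2, with adjusted p of 0.434, 0.712, 0.947 and 0.119. None of the 4 passed. Adm was 8.28 ± 1.43 above normal lung on that scale (adjusted p = 3.34e-05), where 62.7% of tested genes were higher and 0.169% lower. For Ramp2 that value fell to -0.06 without metastasis replicate 3. Calcrl was at 32.5, 6.99, 36.4, 7.99 and 6.42% of the normal lung mean in metastasis replicates 1 to 5, beside pan-endothelial levels of 26.9, 22.2, 22.01, 8.20 and 7.37%.

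**Figure D3:**
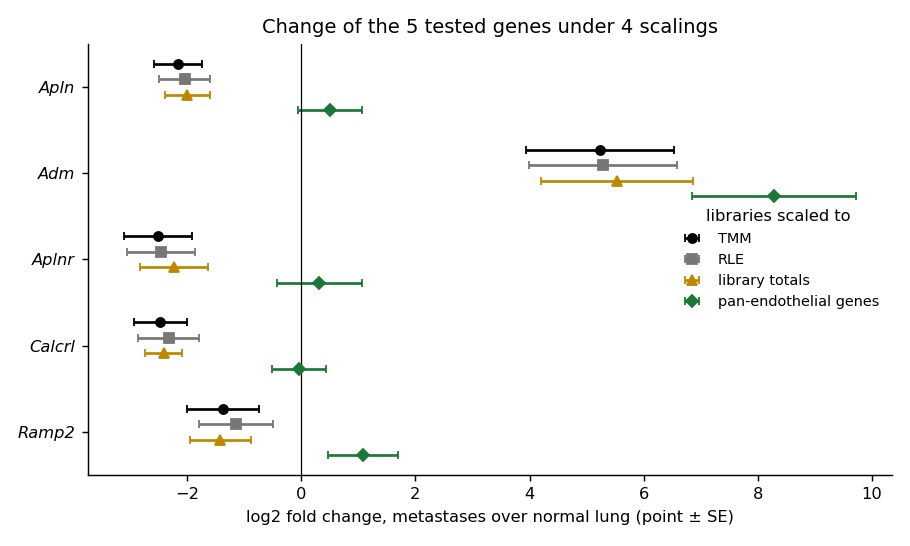
Log2 fold change of the 5 tested genes, metastases over normal lung, with bars of 1 SE, with libraries scaled by TMM, RLE, library totals or the 17 pan-endothelial genes. Apln, Aplnr and Ramp2 are below 0 under the first 3 scalings and above 0 under the last, Calcrl is at -0.04 under the last, and Adm is above 0 under all 4.

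**Figure D4:**
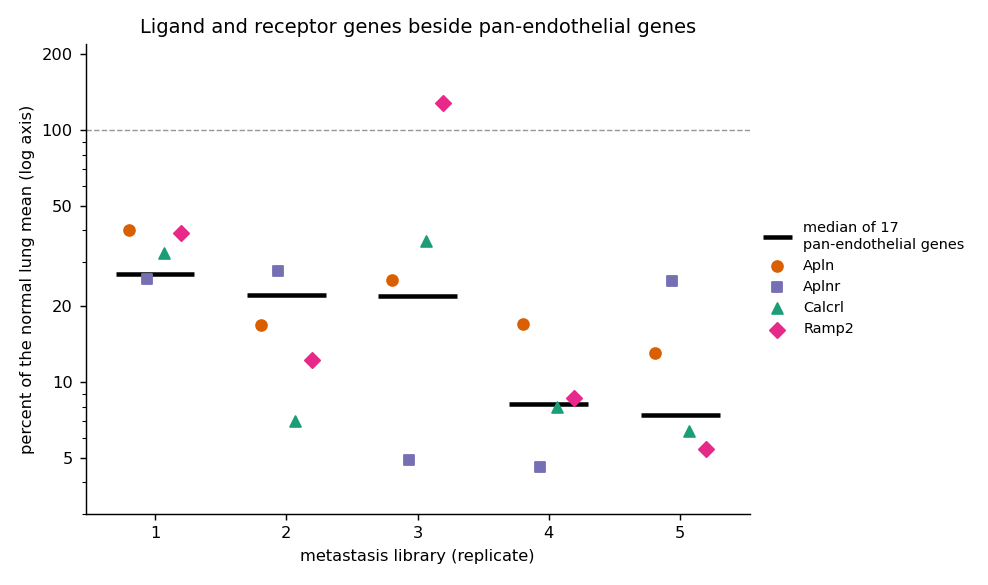
Level of Apln, Aplnr, Calcrl and Ramp2 in each metastasis library as a percentage of the normal lung mean, on a log axis, with a black bar at the median of the 17 pan-endothelial genes and a dashed line at 100. Calcrl is just below the bar in replicates 4 and 5, at 7.99 and 6.42%, and Ramp2 in replicate 3 is the only value above 100.

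Libraries 1 and 2 of each group differed from libraries 3 to 5 in how much Rn45s, a ribosomal RNA precursor, they held, with shares of 1.45 to 4.61% and 2.83 to 3.51% in replicates 1 and 2 of metastases and of normal lung, and 0.647 to 1.24% and 0.408 to 0.469% in libraries 3 to 5. The labels name no batch. Within libraries 1 and 2 alone Calcrl passed (-2.06, adjusted p = 0.0453) and so did Ramp2 (-2.29, 0.0354), while Apln was at -1.96 (0.106), Aplnr at -2.32 (0.0746) and Adm at 3.78 (0.458). Within libraries 3 to 5 alone Apln (-2.33, adjusted p = 0.00621), Aplnr (-2.74, 0.0353), Calcrl (-2.73, 0.00844) and Adm (5.42, 0.0129) passed, and Ramp2 was at -0.80 (0.588).

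The members' closest companions were sought by the root mean square difference of log2 CPM profiles over the 10 libraries, each gene centred on its own mean, among 8100 genes of at least 10 CPM. This measure includes the difference between the groups. Calcrl lay nearest to Cd36, a fatty acid transporter of capillaries (0.19), Sema6a, a semaphorin (0.24), and Tspan13, a tetraspanin (0.25), against a median of 2.04 over all candidates. Apln lay nearest to Adgrl2, an adhesion G protein coupled receptor (0.24), Clec2d (0.29) and Dlc1 (0.29). Ramp2 lay nearest to Ocln, the tight junction protein occludin (0.31), Rtp3 (0.38) and Chst1, a sulfotransferase (0.39). Aplnr had looser neighbours, led by Cyb561 (0.52), Bcas3 (0.53) and Plpp1 (0.54), and Adm the loosest, Celf4, an RNA-binding protein (0.80), Fst, the activin inhibitor follistatin (0.88), and Ifit1bl1 (0.97). Between members the smallest difference was that of Apln and Calcrl (0.63), followed by Calcrl and Ramp2 (0.69), and Apln was farther from its own receptor gene (1.04).

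Of 14 further genes that make, cut, bind or compete for these peptides, 6 were tested: 2 fell and none rose, beside 8.22% lower and 12.0% higher among all tested genes. Their median log2 fold change was 0.74, beside 0.06 for all tested genes. Gpr182, a receptor once proposed to bind adrenomedullin, fell 24.1-fold, with 2.61 ± 1.15 CPM in metastases and 63.0 ± 73.6 CPM in normal lung (SD, n = 5 each; -4.59 ± 0.89, adjusted p = 0.000718). Normal lung replicate 1 had 193 CPM of Gpr182, and replicates 2 to 5 had 21.2 to 48.7 CPM. Pam, the enzyme that amidates adrenomedullin, fell 3.16-fold (-1.66 ± 0.43, adjusted p = 0.0072). Ackr3, a scavenger receptor of adrenomedullin and of the chemokine Cxcl12, was at 1.89 ± 0.73 (adjusted p = 0.0722), with 180 CPM in metastasis replicate 3 and 26.9 to 48.1 CPM in the other 4. Furin, a protease of prohormones, was at 1.08 ± 0.92 and Crcp at 0.41 ± 1.15 (adjusted p of 0.464 and 0.845). Apela, the second ligand of the apelin receptor, Calca and Calcb, which encode calcitonin gene-related peptides, and Calcr, the calcitonin receptor, had 0 counts in all 10 libraries.

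Downstream signalling genes were looked at next. The list holds 28 genes and 24 were tested: 3 rose, 5 fell, with a median of -0.92. These are 12.5% higher and 20.8% lower, beside 12.0% and 8.22% of all tested genes. Arrb2, a beta-arrestin, rose 11.7-fold (3.55 ± 0.96, adjusted p = 0.0102). Prkar2b, a regulatory subunit of protein kinase A, rose 10.2-fold (3.35 ± 1.01, adjusted p = 0.0241). It had 537, 108, 221, 24.6 and 7.58 CPM in metastasis replicates 1 to 5. The platelet sums there were 12105, 2491, 1706, 870 and 670 CPM, and any link was not tested. Gnas, the stimulatory G protein of the Calcrl receptor, rose 2.17-fold, with 1067 ± 447 CPM in metastases and 492 ± 80.2 CPM in normal lung (SD, n = 5 each; 1.12 ± 0.35, adjusted p = 0.0269). Gnai1, an inhibitory G protein, fell 7.16-fold (-2.84 ± 0.84, adjusted p = 0.0187), Klf2, a flow-responsive transcription factor, 5.42-fold (-2.44 ± 0.50, 0.00118), Gnaq 4.61-fold (-2.20 ± 0.40, 0.000422) and Rapgef4, a cyclic AMP sensor, 4.57-fold (-2.19 ± 0.71, 0.0291). The remaining fallen gene, named after its value was seen, was the adenylyl cyclase Adcy4 (-1.87 ± 0.49, adjusted p = 0.00777). Among the most abundant genes without a call, Gna13 was at 0.14, Prkar1a at -0.08, Gnai2 at -1.25 and Arrb1 at -1.06.

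Several hypoxia response genes rose, and of the 7 that did Egln3 alone shared the low value of Adm in metastasis replicate 1. Among 20 listed genes 18 could be tested, and 7 rose while 2 fell, with a median of 1.00. These are 38.9% higher and 11.1% lower, beside 12.0% and 8.22% of all tested genes. Egln3, an oxygen-sensing hydroxylase, had 0.474, 45.7, 18.9, 19.3 and 32.9 CPM in metastasis replicates 1 to 5 and 0.153 to 0.306 CPM in normal lung (6.88 ± 1.31, adjusted p = 0.000599). Like Adm, it was lowest by far in metastasis replicate 1. The glucose transporter Slc2a1 did not share that gap, at 63.5, 253, 24.9, 106 and 93.6 CPM in metastases and 1.19 to 4.35 CPM in normal lung (5.51 ± 0.78, adjusted p = 2.57e-05). Neither did Hk2, a hexokinase (68.8, 129, 74.5, 61.9 and 94.3 CPM in metastases, 0.753 to 3.24 CPM in normal lung; 5.94 ± 0.80, adjusted p = 1.19e-05). Pgk1 and Ldha, glycolytic enzymes, rose 15.2-fold and 12.2-fold (adjusted p of 0.00676 and 3.38e-07), and Hif1a, the inducible factor itself, rose 5.25-fold (2.39 ± 0.40, 0.000176). Epas1, the form of that factor abundant in lung endothelium, fell 5.25-fold (-2.39 ± 0.44, adjusted p = 0.000432) and Vegfa 2.67-fold (-1.42 ± 0.43, 0.021). Arnt was at 0.59 and Kdm3a at -0.22, without a call. The gene that completes the risen ones, named after its value was seen, is Ndrg1 (2.54 ± 0.76, adjusted p = 0.0197). In metastasis replicate 1 Ldha (955 CPM), Hif1a (469 CPM), Pgk1 (23.8 CPM) and Ndrg1 (95.4 CPM) lay inside the range of the other metastasis libraries.

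**Figure D5:**
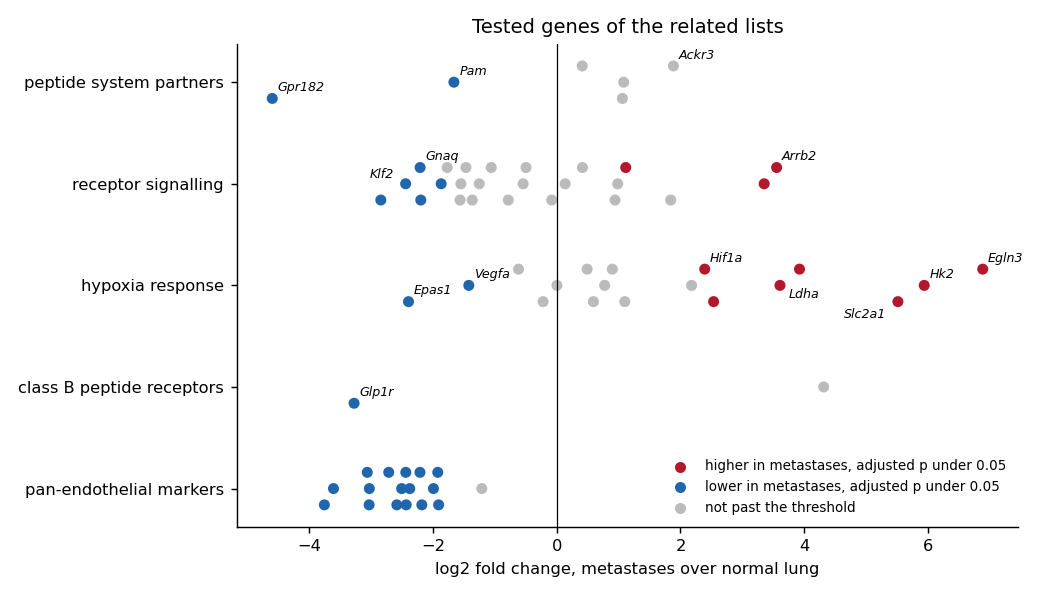
Log2 fold change, metastases over normal lung, of the tested genes of 4 related lists and of the pan-endothelial markers, 1 point per gene, red where higher and blue where lower at an adjusted p under 0.05 and grey otherwise, with vertical offsets for legibility only. Of the 17 pan-endothelial genes 16 are blue, while the hypoxia list has 7 red and 2 blue genes.

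Markers of other cells stood beside Adm in the metastasis libraries in different orders. Metastasis replicate 1, where Adm was at 0.406 CPM, had the lowest macrophage sum of the 5 (316 CPM, against 826 to 1410.5 in the others). Lyz2 held most of that sum (210 CPM). Lyz2 and Mrc1 (0.981 CPM) were lowest in replicate 1, while Cd68 (67.8 CPM) lay inside the range of the others. Metastasis replicate 2 had a macrophage sum of 1308 CPM beside 7.25 CPM of Adm. In replicate 1 the sums of neutrophil (42.8 CPM) and fibroblast markers (369 CPM) lay inside the range of the other metastasis libraries. The summed level of 7 epithelial and mammary tumour markers was 22.4 to 71.6 CPM in metastases and 8.96 to 754 CPM in normal lung, where the highest values came with Scgb1a1, a club cell gene. Of the 4 tested, 1 rose and 1 fell: Scgb1a1 was lower (-5.74 ± 1.21, adjusted p = 0.00245), and Cdh1 and Sftpc had no call. Scgb1a1 had 4.99, 3.57, 752, 23.9 and 558 CPM in normal lung replicates 1 to 5, and the groups overlapped. Krt8, a keratin, rose, with 21.9 ± 13.8 CPM in metastases and 0.245 ± 0.0744 CPM in normal lung (SD, n = 5 each; 6.47 ± 1.20, adjusted p = 0.000497). Of 6 lymphatic markers, in whose cells adrenomedullin signalling is also known to act, 4 were tested, of which Mmrn1 rose and Flt4 fell. Of 7 pericyte and smooth muscle markers 4 were tested, of which Rgs5, named after its value was seen, fell and none rose. Rgs5 also overlapped between the groups, at 0.230, 29.0, 7.65, 6.73 and 0.243 CPM in normal lung replicates 1 to 5. For these marker counts, the shares over all tested genes were 8.22% lower and 12.0% higher. Of 8 aerocyte markers 7 fell, among them Ednrb, Emp2 and Car4, and of 8 general capillary markers 7 fell, among them Ptprb, Cd93 and Sema3c. How far these cells bear on Apln, Aplnr or Adm was not tested.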

How the data were processed

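RNA-seq of 5 metastasis and 5 normal lung libraries was analysed. Per the submitters' processing notes, HTSeq 0.6.1, DESeq2 1.6.3, Cufflinks 2.2.1 and TopHat2 2.0.13 were used with mm10/GRCm38. For the annotation and for strand, the setting was not given in the sources used here. The authors deposited raw gene counts per library and 1 table of FPKM, which is scaled to length and depth. Reads that HTSeq assigned to no annotated feature were left out. They were 57.9 to 73.7% of all entries of a count file in metastases and 55.4 to 64.7% in normal lung. Whether they lay in introns or outside genes is not known here. FPKM columns matched the counts of their own library best in 10 of 10 libraries.

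Counts were scaled by TMM and tested with edgeR 4.0.16 (R 4.3.3), using its filter on low counts, robust quasi-likelihood F tests and Benjamini-Hochberg adjustment over 11823 genes, with a threshold of 0.05. Adjusted p-values in the text come from this fit unless another is named. SE is the absolute log2 fold change divided by the square root of F. Ratios and shares used FPKM, with 0.1 added in ratios, and two-sided exact permutation tests. The scripts were tested on simulated data. Total gene counts of 21677429 to 79710581 per library and the spread between libraries both limit the precision.

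Alternatives were other scalings, filters, DESeq2 1.42.0, limma 3.58.1 on log2(FPKM + 1) or log2(FPKM + 0.1), library subsets and a replicate block. Replicate numbers were not taken as pairs. The members and lists were chosen with earlier results of these data known. Named were all members, up to 4 largest called changes each way and up to 4 further abundant genes per pathway list, up to 3 abundant genes per marker list, and the 3 nearest profiles per tested member; some listed genes are not reported here. Positions and overlaps come from GENCODE M21 and start regions from RefSeq.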

Additional observations from a re-analysis of the deposited data

Results flagged for a closer look

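In 7 groups of 5 libraries, 1 library lay far from the other 4. Of the 22 groups considered, the normal lung ratios with Calcrl had 4 values and were not examined. Chance gives about 1 in 20 for independent, normally distributed values. CPM was not on a log scale and the ratios reuse the same genes, so that rate is only a rough guide. Metastasis replicate 2 stood apart for Ramp1 (4.99 CPM) and for Ramp3 (8.80 CPM), both near 0 in the other metastasis libraries. Metastasis replicate 3 stood apart for Ramp2 (685 CPM, the others at 28.8 to 209) and for the log2 ratio of Ramp2 to Calcrl (1.05, the others below 0). Normal lung replicate 4 stood apart for Adm (1.64 CPM, the others at 0.260 to 0.324) and for the log2 ratio of Adm to Apln (-5.53). Normal lung replicate 3 stood apart for Calcrl in FPKM, listed at 0 beside 18200.2 CPM from its counts.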

How the results depend on the processing

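Of the alternative values computed, 235 kept their direction and side of the threshold or stayed close to the reported value, 9 moved, 8 changed sign, 7 newly passed and 9 no longer passed. The causes were not tested. Scaled to pan-endothelial genes, 7415 genes were higher and 20 lower in metastases, and Apln (0.50), Aplnr (0.32) and Ramp2 (1.09) changed sign while Calcrl (-0.037) did not pass. With metastasis replicate 3 also left out, a choice made after seeing the data, these were 7635, 19, 0.53, 0.58, -0.06 and -0.37. DESeq2 called 2380 genes higher and 1661 lower, against 1420 and 972 with edgeR. With limma on FPKM, Calcrl was at -0.77 (adjusted p = 0.847), -0.11 with 0.1 added (0.981) and -0.77 without a filter (0.838), and Ramp2 passed at -2.40 and -2.41 but not without a filter (-2.40, adjusted p = 0.0706). Without normal lung replicate 3, where Calcrl is listed at 0 and which was left out after seeing the data, Calcrl was at -2.96 (0.00158) and Ramp2 at -2.42. With replicates 1 and 2 alone 487 genes were higher and 201 lower, Apln (-1.96), Aplnr (-2.32) and Adm (3.78) did not pass and Ramp2 did (-2.29). Without metastasis replicates 4 and 5, 527 genes were lower and Adm did not pass (4.40, 0.0683). With the replicate block Ramp2 passed at -2.44 (0.000145), and the log2 ratio of Adm to Apln had an exact p of 0.0625. Same-numbered libraries correlated at 0.000682 to 0.142, above 0.1 in replicate 2 alone, and only replicates 2 and 4 correlated best with their own number.

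Leaving out each library in turn gave 1302 to 1440.0 genes higher and 792 to 1114 lower. Log2 fold changes ran from -2.49 to -2.01 for Apln, -2.74 to -2.26 for Aplnr, 4.87 to 6.11 for Adm and -2.91 to -2.26 for Calcrl, with every call kept, and from -2.62 to -1.08 for Ramp2. Differences ran from 5.95 to 7.90 for the log2 ratio of Adm to Apln and from -0.94 to 0.27 for Calcrl to Aplnr. The second turned sign without metastasis replicate 2 (0.16), metastasis replicate 5 (0.27) or normal lung replicate 5 (0.10). The counts of Adm in normal lung, 12 to 63, limit the precision of its fold change.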

Other observations

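Calcrl belongs to the class B family of peptide hormone receptors, and 14 other members of that family were looked up. Of these 2 were tested, and 1 fell, beside 8.22% lower among all tested genes. Glp1r, the receptor of glucagon-like peptide 1 and also a marker of general capillary cells, had 51.3, 50.3, 10.9, 12.3 and 6.49 CPM in metastasis replicates 1 to 5, against 323, 429.8, 119, 259 and 137 CPM in normal lung replicates 1 to 5. The groups did not overlap (-3.27 ± 0.61, edgeR adjusted p = 0.000531). Metastases lay below normal lung in this way in 6.17% of all tested genes. Gipr, the receptor of the incretin GIP, averaged 2.71 CPM in metastases and 0.132 CPM in normal lung, without a call (adjusted p = 0.0704). Adcyap1r1, the receptor of the peptide PACAP, was not tested. It had 26.3 and 25.5 CPM in metastasis replicates 3 and 5, and under 1 CPM in the other 3 metastasis libraries and in all 5 normal lung libraries.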
